A study of Homo sapiens with 6 samples.

Results

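The strongest B bins were 1324 of the 26484 autosomal bins of 100 Kb that had a score in all 6 libraries of T47D cells, a human breast cancer cell line that expresses the estrogen receptor. The bins were ordered by the mean score of the 5 parental libraries, and the lowest 5% were taken, so the parental scores chose them and are described here without a test. The cells were profiled by TCC, a variant of Hi-C that cuts DNA with HindIII, ligates it while tethered to a solid surface and counts which genomic regions were in contact. The authors deposited 1 score per bin, taken from the leading eigenvector of their corrected map of contacts between chromosomes. Bins with positive scores are assigned to compartment A and bins with negative scores to compartment B. Scores are given here multiplied by 1000.

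Parental T47D cells were kept without hormone for 72 h in phenol red-free medium with stripped serum and collected before estradiol (T0) or 1, 4, 16 and 24 h after 100 nM estradiol (E2) was added (T1, T4, T16 and T24). The sixth library came from tamoxifen-resistant T47D cells (TamR), which the labels call untreated and the methods describe as kept in 100 nM tamoxifen. With a single library per condition, differences between conditions could not be checked against replicates, and no p-value is given. Whether replicate cultures were pooled in a library is not stated in the sources used here, and neither is the origin of the resistant cells as a pool or a clone. The contact counts behind a score are unknown from these files. The squared scores of a library sum to about 1, so that sizes are relative within a library, and ranks are given beside them. A score averages over many cells, so fewer cells holding a region in B and weaker contacts of that region in each cell cannot be told apart.

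Compartment A gathers open, gene-rich and transcribed chromatin, whereas compartment B gathers compact, gene-poor and mostly silent chromatin, much of it at the nuclear lamina or the nucleolus. The first eigenvector separates both by the partners that a region contacts on other chromosomes, and the bins at its lower end are those whose contacts differ most from those of compartment A. Genes for receptors and structural proteins of a single specialised tissue, such as odorant receptors and hair proteins, are commonly found in B in cells that do not use them.

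To show what such chromatin looks like at the base level, 4 windows of 300 bases are printed from the lowest bin of each of the 4 longest unbroken runs of the strongest B bins, followed by a window from the autosomal bin with the highest parental mean. Each window is the plus strand of GRCh37, which is the same sequence as hg19, centred on the HindIII site (in capitals) nearest to the centre of the bin.
chr21:26545466-26545765: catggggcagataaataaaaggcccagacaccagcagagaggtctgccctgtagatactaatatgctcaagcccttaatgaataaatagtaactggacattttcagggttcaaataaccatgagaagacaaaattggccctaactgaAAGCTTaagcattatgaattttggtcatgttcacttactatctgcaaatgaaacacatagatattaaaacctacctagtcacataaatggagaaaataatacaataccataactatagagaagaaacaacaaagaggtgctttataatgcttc
chr5:30748928-30749227: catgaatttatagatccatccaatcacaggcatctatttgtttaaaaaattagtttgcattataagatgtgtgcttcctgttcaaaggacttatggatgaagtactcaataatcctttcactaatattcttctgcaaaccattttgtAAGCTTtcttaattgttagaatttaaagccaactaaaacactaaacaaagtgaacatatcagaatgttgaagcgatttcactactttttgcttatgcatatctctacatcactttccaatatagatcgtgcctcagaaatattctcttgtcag
chr18:28150834-28151133: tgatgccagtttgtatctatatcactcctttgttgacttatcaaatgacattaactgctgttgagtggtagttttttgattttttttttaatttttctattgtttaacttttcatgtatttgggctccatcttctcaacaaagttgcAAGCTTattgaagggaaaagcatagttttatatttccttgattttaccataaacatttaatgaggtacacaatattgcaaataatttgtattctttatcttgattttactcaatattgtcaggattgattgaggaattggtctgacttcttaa
chr11:41949228-41949527: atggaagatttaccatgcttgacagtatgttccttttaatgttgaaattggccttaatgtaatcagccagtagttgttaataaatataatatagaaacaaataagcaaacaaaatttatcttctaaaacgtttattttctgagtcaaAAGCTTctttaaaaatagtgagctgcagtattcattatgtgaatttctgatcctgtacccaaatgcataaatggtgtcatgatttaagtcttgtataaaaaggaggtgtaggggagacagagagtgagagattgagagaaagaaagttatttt
chr9:139752140-139752439: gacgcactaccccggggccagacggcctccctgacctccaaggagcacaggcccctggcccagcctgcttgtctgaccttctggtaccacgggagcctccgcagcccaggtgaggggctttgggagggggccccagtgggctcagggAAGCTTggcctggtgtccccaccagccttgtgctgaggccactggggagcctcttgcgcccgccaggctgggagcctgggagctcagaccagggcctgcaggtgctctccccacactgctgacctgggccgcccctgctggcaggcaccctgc
The 4 windows from the strongest B bins had GC contents of 35.7, 31.7, 29 and 31%, and they held 0, 2, 0 and 1 CpG dinucleotides. The window from the highest bin had 70.7% GC and 8 CpG dinucleotides. None of the first 4 windows lies in a protein-coding gene. The chromosome 21 window lies in the body of the lncRNA gene ENSG00000222042, and the other 3 lie in no annotated gene. The chromosome 9 window lies in the body of the protein-coding gene MAMDC4.

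The bin of the chromosome 21 window, from 26500001 to 26600000, scored -10.1 in T0, -9.37 in T1, -9.38 in T4, -10.2 in T16, -8.55 in T24 and -10.6 in TamR. The bin of the chromosome 5 window scored -8.77, -9.22, -8.84, -9.09 and -7.85 in T0, T1, T4, T16 and T24, and -8.82 in TamR. The bin of the chromosome 18 window scored -9.36, -8.69, -8.99, -8.77 and -8.13 in the same order and -8.93 in TamR. In the first 3 bins TamR lay within or below the parental scores, and in the fourth it lay above all of them. That bin, on chromosome 11, scored -9.14, -9.19, -9.74, -8.76 and -8.09 in the parental libraries and -8.01 in TamR. The chromosome 9 bin lay at the other end in every library, between 16.1 in TamR and 20.1 in T24.

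Across the 5 parental libraries the strongest B bins formed a narrow band far below 0. Their median score was -8.26 in T0, -8.19 in T1, -8.32 in T4, -8.26 in T16 and -7.59 in T24, and the SD over bins lay between 0.415 and 0.489. The highest parental score of any strongest B bin was -5.51, in T24. In TamR the median was -8.04, but the SD over bins was 2.08 and the scores ran from -10.9 to 3.48. The next 5% of bins, the 1324 bins that follow in the ordering, had medians from -7.62 to -6.99 in the parental libraries and -7.26 in TamR.

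**Figure D1:**
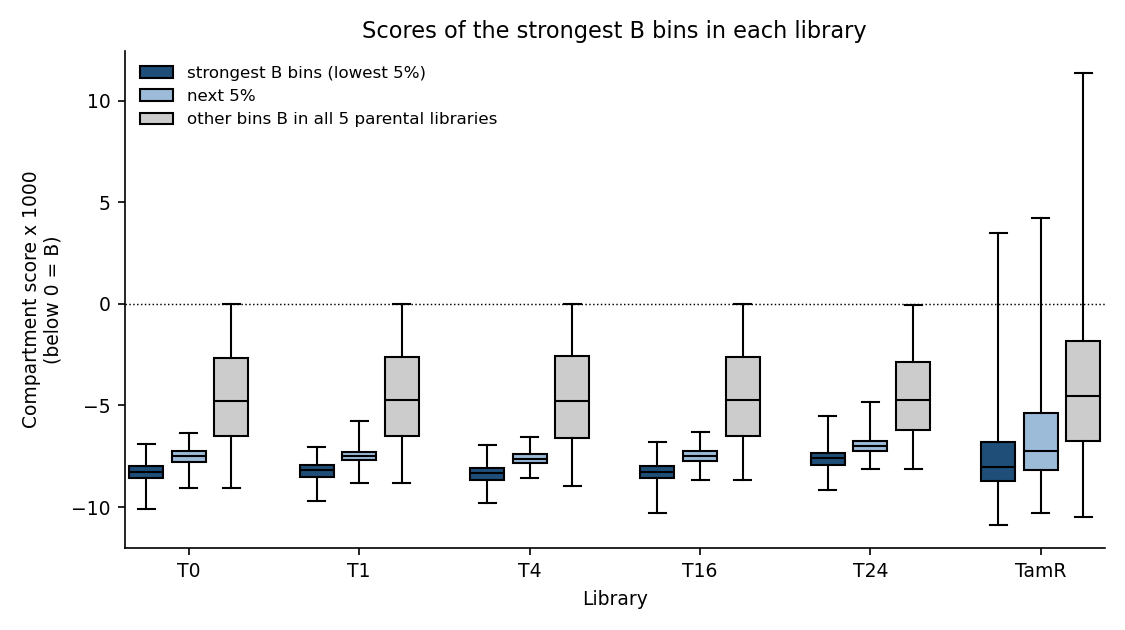
Scores multiplied by 1000 (y axis) in each of the 6 libraries (x axis, 1 library per condition) for the strongest B bins, the next 5% and all other bins that are B in the 5 parental libraries, a group that includes the next 5%. Lines in the boxes are medians, boxes the quartiles, whiskers the lowest and highest bins, and the dotted line is the border between A and B; the highest strongest B bin is at -5.51 in the parental libraries and at 3.48 in TamR.

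T24 stood apart from the other parental libraries in the size of its scores. It held the highest of the 5 scores in 1063 of the strongest B bins (80.3%), against 32.1% of the other bins that were B in all 5 parental libraries. The whole lower tail of T24 was shorter, with 5% of autosomal bins below -7.30 in T24, below -7.82 to -7.95 in the other parental libraries and below -8.32 in TamR. By rank within the library, T24 was the highest in 380 of the strongest B bins (28.7%). The median SD over the 5 parental libraries was 0.400 in the strongest B bins (95% interval over bins 0.390 to 0.410), and 0.264 without T24. It was 0.398 in the other B bins and 0.622 in the top 5% of bins, at the A end, and 0.324 and 0.448 without T24. Intervals here treat bins as independent, which neighbouring bins are not, and are therefore too narrow.

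The parental libraries also shared their lowest bins, in part through the choice itself. Of the strongest B bins, 81.5% lay in the bottom 5% of T0, 83.5% in that of T1, 85.5% in that of T4, 83.8% in that of T16 and 77.0% in that of T24. In all 5 parental libraries 632 bins (47.7%) lay in the bottom 5%, and 299 (22.6%) did so in TamR as well. Every one of the strongest B bins lay in the bottom 5% of at least 1 parental library.

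The border of the group cuts through a continuous range. The 3 bins just inside it had parental means that all round to -7.71 or -7.72, on chromosome 18 from 70000001 and from 40700001 and on chromosome 6 from 62200001. The 3 bins just outside it, on chromosomes 8, 1 and 13, had means of -7.71. The TamR scores of the 3 inside were -6.74, 0.179 and -7.63, and those of the 3 outside were -5.93, -7.23 and -6.40.

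The strongest B bins lay on 20 of the 22 autosomes and were unevenly shared among them. Chromosome 3 held most, with 142 (10.7% of them, against 7.35% of all scored autosomal bins), followed by chromosome 11 with 123, chromosomes 8 and 13 with 111 each and chromosome 18 with 108. These 5 chromosomes held 44.9% of the strongest B bins and 24.1% of all scored bins. As a share of the chromosome they were most frequent at 15.4% of the bins of chromosome 21 (95% Wilson interval 12.0 to 19.5%), 14.4% of chromosome 18 (12.1 to 17.1%) and 11.6% of chromosome 13 (9.74 to 13.8%). Bins without a protein-coding gene start made up 63.0, 73.3 and 74.9% of these chromosomes in that order, against 61.9% of all bins. On chromosome 4 such bins made up 72.1%, while 2.03% of its bins were strongest B bins. Chromosomes 13, 18 and 21 together held 20.6% of the strongest B bins and 7.76% of all bins. The gene-rich chromosomes 19 and 22 held none among 557 and 336 scored bins, and the lowest parental means there were -5.74 and -6.69.

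Chromosomes 1, 2 and 4, which are large like chromosome 3, held few. Chromosome 2 held 3 strongest B bins among 2351 (0.128%, 0.0434 to 0.375%), although 50.5% of its bins were B in all 5 parental libraries. Chromosome 1 held 34 (1.53%) and chromosome 4 held 38 (2.03%), the latter with 64.4% of its bins in B throughout. Chromosomes 1, 2 and 4 together held 5.66% of the strongest B bins and 24.3% of all bins. Of the 17 domains over 3 Mb on chromosome 2, unbroken stretches of bins that were B in all 5 parental libraries, 2 held a strongest B bin, and on chromosome 3 it was 9 of 14. The score is computed from contacts between chromosomes, and the part of chromosome size and position in this order was not tested.

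**Figure D2:**
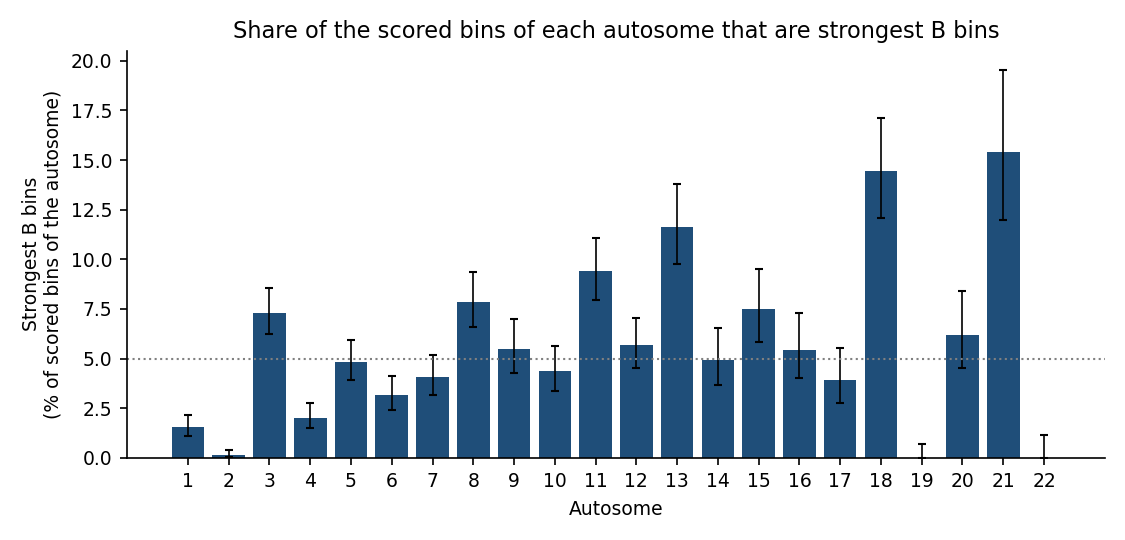
Share of the scored bins of each autosome (x axis) that belong to the strongest B bins (y axis, percent), with 95% Wilson intervals over bins; the dotted line marks the 5% taken over all autosomes. Chromosomes 13, 18 and 21 stand highest, at 11.6, 14.4 and 15.4%, chromosome 2 stands at 0.128%, and chromosomes 19 and 22 hold none.

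Along the chromosomes the strongest B bins were grouped. They formed 484 unbroken runs, of which 222 were single bins and 167 held at least 3 bins. The runs of at least 3 bins contained 912 of the strongest B bins (68.9%), and 14 runs held at least 10. Of 691 B domains, 138 contained a strongest B bin, and the median length was 4.1 Mb for these and 0.5 Mb for the others. Of the strongest B bins, 6 were the first or last bin of their domain, and this count is not given for the other B bins. Bins chosen for low scores are unlikely to lie where scores leave B, and long domains hold more bins that could be chosen. The median distance of the strongest B bins from the nearest bin of compartment A was 1800 kb, against 1200 kb for the other B bins and 1800 kb for the next 5%. The domain with most of them, on chromosome 13 from 53100001 to 64800000, held 62 among 117 bins, and a domain on chromosome 3 from 73200001 to 90500000 held 45 among 173.

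Both longest runs spanned 20 bins. The run on chromosome 21 from 24900001 to 26900000 contained no protein-coding gene start and had a mean score of -9.14 in T0, -8.83 in T1, -9.23 in T4, -9.03 in T16, -7.95 in T24 and -9.99 in TamR. TamR was the lowest of the 6 libraries there, and all 20 bins were in its bottom 5%. The run on chromosome 5 from 29200001 to 31200000 contains at its end the start of CDH6, a cadherin that joins cells in the kidney and nervous system, and had means of -8.54, -8.42, -8.57, -8.45 and -7.54 in T0, T1, T4, T16 and T24 and -8.38 in TamR. Here TamR lay within the parental range, with 14 of 20 bins in its bottom 5%.

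The next longest runs differed in TamR. On chromosome 18 from 26900001 to 28500000, again without a protein-coding start, the 16 bins had a parental mean of -8.51 and a TamR mean of -8.38. On chromosome 11 from 41400001 to 43000000, which contains the start of LRRC4C, a synaptic adhesion protein, the 16 bins had a parental mean of -8.29 and a TamR mean of -7.61, with 1 bin in the bottom 5% of TamR. On chromosome 12 from 23400001 to 24900000, with the start of SOX5, a transcription factor of cartilage and neuron development, the 15 bins had a parental mean of -8.47 and a TamR mean of -8.86, with 13 bins in that bottom 5%.

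The base composition of the strongest B bins was that of the B compartment at large, at its AT-rich end. Their median GC content was 36.7% (95% interval 36.6 to 36.8%), against 36.9% in the next 5%, 37.7% in the other B bins, 39.9% in all scored autosomal bins and 51.1% in the top 5%. They had 5.99 CpG dinucleotides per kb, against 6.03, 6.48, 8.2 and 21.0 in the same order. The number of HindIII sites, at which the method cuts, had a median of 33 per 100 kb in the strongest B bins, 32 in the next 5% and in the other B bins, 29 in all bins and 18 in the top 5%. Low GC content alone did not pick them out. Of the 1326 bins with the lowest GC content (at most 34.7%), 159 (12.0%) were strongest B bins and 93.7% were B in all 5 parental libraries.

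Protein-coding genes rarely start in these bins. No protein-coding gene start lay in 91.7% of the strongest B bins (95% interval 90.1 to 93.1%), against 91.5% of the next 5%, 79.2% of the other B bins, 61.9% of all bins and 11.9% of the top 5%. For both measures the interval of the strongest B bins overlapped that of the next 5%, which was 36.8 to 37.1% for GC content and 89.8 to 92.9% for bins without a start. A protein-coding gene body that starts elsewhere ran through 344 of the strongest B bins, and 870 (65.7%) held no part of a protein-coding gene. The strongest B bins made up 7.40% of all bins without a protein-coding start and 9.85% of all bins without a protein-coding gene body. Starts of lncRNA genes numbered 426 and pseudogene starts 379, and 47.2% of the strongest B bins held no annotated gene start of any kind.

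**Figure D3:**
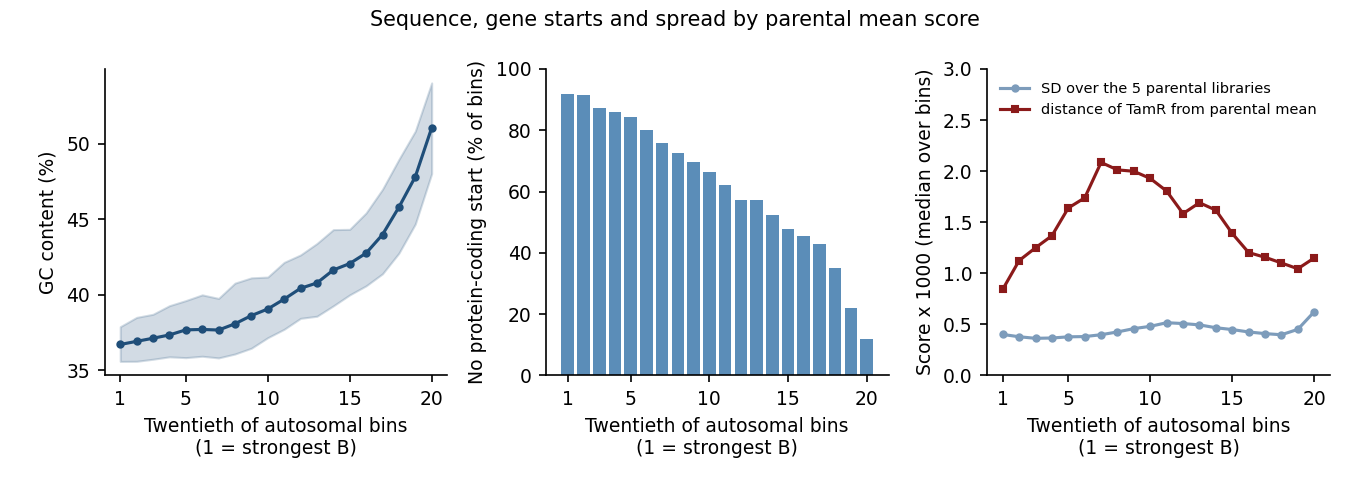
The 26484 autosomal bins in 20 groups from the lowest (1) to the highest (20) parental mean score, with the median GC content and its quartiles (left, percent), the share of bins without a protein-coding gene start (middle, percent) and, on the scale of the score multiplied by 1000, the median SD over the 5 parental libraries and the median distance of TamR from the parental mean (right). GC content and gene starts change little over the lowest groups, and the distance of TamR is 0.842 in the strongest B bins and 2.08 in the seventh group, which lies nearer to the border with A.

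In all, 198 protein-coding genes started in 110 of the strongest B bins, which is 1.05% of the 18862 protein-coding genes that start in scored autosomal bins. Of these, 100 (50.5%) belonged to the olfactory receptors and the keratin-associated proteins. The gene lists were written by symbol with results of these data known, and the share of all protein-coding genes, 1.05%, stands as their background.

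Keratin-associated proteins, which cross-link keratin in the hair shaft, contributed 30 of their 94 genes (31.9%), or 30 of the 49 on chromosome 21, all from 6 adjacent bins between 31600001 and 32200000. The same gene family split sharply by location. The 30 genes of this cluster lay in bins with parental means from -9.67 to -8.42, while the 11 genes on chromosome 11 lay in bins from 8.21 to 13.2 and the 34 on chromosome 17 in bins from 10.5 to 12.1. The split also ran within chromosome 21, where the bins of all 49 genes ranged from -9.67 to 13.5. By parental mean, 61 of the 94 genes lay in A. All 58 keratin genes also lay in A by parental mean. The lowest of all autosomal bins, from 32000001 to 32100000, holds the starts of KRTAP20-2, KRTAP20-3 and KRTAP21-3. It scored -9.87 in T0, -9.49 in T1, -9.70 in T4, -10.3 in T16, -8.97 in T24 and -9.55 in TamR, so TamR lay inside the parental range. The neighbouring bin from 31900001, with 9 starts including KRTAP19-6, KRTAP6-3 and KRTAP22-1, scored between -9.61 and -8.38 in the parental libraries and -9.58 in TamR. In TamR the 6 bins of the cluster scored from -9.58 to -8.60.

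Olfactory receptors, the odorant-binding receptors of the nasal epithelium, contributed 70 of 402 genes (17.4%, 95% interval 14.0 to 21.4%) in 24 bins. The 402 genes start in 168 bins, and genes of 1 bin share its score, so this interval is too narrow. Chromosome 1 accounted for 44 of these, out of 62 olfactory receptor genes there (71.0%), whereas chromosome 11, which carries most of the family, contributed 21 of 177 (11.9%). The remaining 5 were 4 genes in 1 bin of chromosome 9 and 1 gene on chromosome 3, and none of the 24 on chromosome 14 or the 19 on chromosome 19 was included. The bin with OR2L3 and OR2L13, the lowest of the family, scored -8.95, -9.19, -8.66, -8.50 and -8.14 in T0, T1, T4, T16 and T24 and -7.23 in TamR, above all 5. The bin with OR10J4 and OR10J1 scored -8.86, -8.26, -8.80, -8.86 and -7.84 and, in TamR, -8.14, within the parental range. Over the strongest B bins with olfactory receptors on chromosome 1, TamR scores ran from -8.74 to -5.68. Both families lie in clusters of related genes. How well reads can be assigned to these clusters was not measured, and the part of this in their scores was not tested.

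Neuronal genes made up a smaller share. Synaptic adhesion and axon guidance genes contributed 5 of 116 (4.31%), among them ROBO2, a receptor that steers growing axons, and the contactins CNTN3, CNTN5 and CNTN6, cell adhesion molecules of the nervous system. Cadherins and protocadherins contributed 3 of 86 (PCDH17, PCDH20 and CDH6), glutamate receptors 2 of 27 (GRM5 and GRIK1), GABA-A and glycine receptors 2 of 19 (GABRA4 and GABRB1) and potassium and sodium channels 2 of 107 (KCNA4 and KCNH8). The C2H2 zinc finger list contributed 1 of 498 genes, ZNF385D, and the SOX and homeobox list 1 of 126, SOX5.

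The 14 genes of these 5 lists of adhesion molecules, receptors and channels started in 13 bins. TamR was above all 5 parental scores in 9 of these bins, below all 5 in 2 and between them in 2. By rank it was above in 11 and below in 1. Over all strongest B bins the shares above and below were 38.5 and 29.9% by score and 61.4 and 12.5% by rank. Over all scored autosomal bins they were 35.2 and 43.7% by score and 36.4 and 42.9% by rank. The bin with the start of ROBO2 scored -8.26, -8.23, -7.90, -8.21 and -7.74 in T0, T1, T4, T16 and T24 and -3.84 in TamR. The bin with the start of GRM5, a metabotropic glutamate receptor, scored -7.76, -8.27, -8.28, -8.14 and -7.55 in the same order and -8.90 in TamR. ROBO2 thus lay above all 5 parental scores in TamR and GRM5 below all 5. CNTN3 was at -8.88 in TamR, also below all parental scores (-8.09 to -7.52), whereas CNTN6 was at -6.83, above them (-8.17 to -7.31). The bin with both GABRA4 and GABRB1 was at -6.56 in TamR and between -8.22 and -7.45 in the parental libraries.

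No strongest B bin held the start of any of 80 ribosomal protein genes, 39 proteasome subunit genes, 20 classical estrogen target genes or 14 luminal lineage factors, and at the background of 1.05% lists of this size would hold few or none. By parental mean, all 20 estrogen targets, 13 of the 14 luminal factors and 73 of the 80 ribosomal protein genes lay in A, which is the orientation that the labels give to the score. There was also no gene from the 27 taste receptors, 27 giant fragile-site genes, 22 UDP-glucuronosyltransferases, 29 defensins or 20 type I interferons. For these small lists 0 genes leave an upper limit of a 95% Wilson interval between 11.7% (defensins) and 16.1% (interferons). The 29 defensins start in 13 bins and the 20 interferons in 8, and genes of 1 bin share its score, so these limits are too low.

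Among the bins with most protein-coding starts, 1 outside both large families lay on chromosome 13 from 57700001 to 57800000, with the 5 near-identical PRR20 genes (PRR20A to PRR20E), and scored -9.74 in T0, between -8.72 and -8.08 in the other parental libraries and -8.46 in TamR. Several long genes ran through many of the strongest B bins. The genes named next were picked after their values were seen. CNTN5 and ROBO2 each ran through 13 strongest B bins, SOX5 through 12 and LRRC4C through 10. Over these bins the mean parental and TamR scores were -8.12 and -8.57 for CNTN5, -8.09 and -4.56 for ROBO2, -8.47 and -8.76 for SOX5, and -8.46 and -7.20 for LRRC4C. NRG1, a growth factor that activates the ERBB3 and ERBB4 receptors, ran through 6 with means of -8.07 and -8.53. GPC6, a cell-surface heparan sulfate proteoglycan, also ran through 6, with means of -7.94 and -0.816.

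TamR was not used to choose the bins, and in TamR the strongest B bins were spread far more widely over the ranks than in a parental library. In the bottom 5% of TamR lay 539 of the 1324 (40.7%, 95% interval 38.1 to 43.4%), and a further 286 lay between the 5th and 10th percentiles, 350 between the 10th and 25th, 131 between the 25th and 50th and 18 above. For comparison, each parental library was set aside in turn and the lowest 5% chosen on the other 4. The library set aside then had between 72.1% (T24) and 82.3% (T4) of those bins in its own bottom 5%, none past the 25th percentile and none in A. On the same choices TamR had between 40.0 and 40.5% in its bottom 5% and between 15 and 20 bins in A. The 5 parental libraries belong to a single treatment course of the parental cells, and TamR is a single library of other cells, so that resistance, culture and library cannot be told apart.

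**Figure D4:**
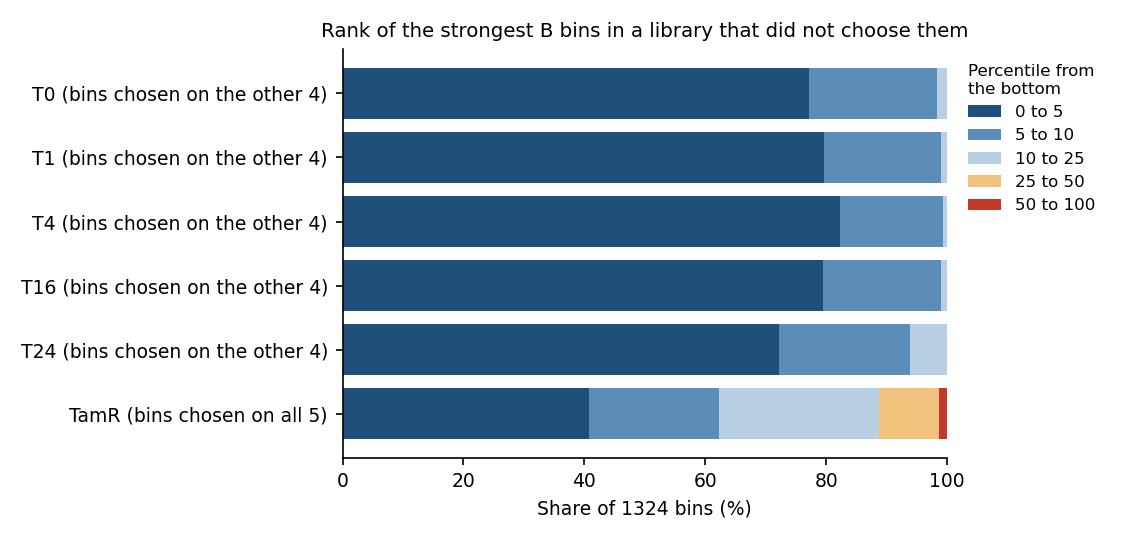
Share of the 1324 bins (x axis, percent) by their percentile from the bottom of a library that took no part in choosing them (y axis). For T0 to T24 the bins were chosen on the other 4 parental libraries and 72.1 to 82.3% fall in the lowest band, whereas for TamR, with bins chosen on all 5, 40.7% do and 11.3% lie past the 25th percentile.

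The differences went both ways and their balance depended on the scale. The median of TamR minus the parental mean was 0.166 (95% interval 0.0719 to 0.262), with 723 of the strongest B bins higher and 601 lower, and -0.252 over all scored autosomal bins. In the next 5% it was 0.131, inside that interval, and in the other B bins 0.0697. For the strongest B bins it was 0.319 without T24 in the reference and 0.345 against T0 alone. TamR exceeded all 5 parental scores in 510 of the strongest B bins (38.5%), against 35.2% of all bins, and was below all 5 in 396 (29.9%), against 43.7% of all bins. The shares above and below were 43.1 and 33.0% in the next 5%, and 42.9 and 39.8% in the other B bins. By score the strongest B bins were thus above all 5 less often than either of these groups. By rank within each library, TamR was above all 5 in 813 of the strongest B bins (61.4%, against 36.4% of all bins) and below all 5 in 165 (12.5%, against 42.9%). The rank shares above and below were 51.5 and 19.3% in the next 5%, and 42.4 and 38.1% in the other B bins. Bins with the lowest ranks have little room below them, so the rank counts are set beside the parental libraries. When chosen on the other 4, between 15.5 and 32.9% of bins ranked above the other 4 in the library set aside, and between 62.8 and 65.9% did so in TamR. T24 had the shortest lower tail and TamR the longest, and without T24 in the range the count of bins with higher TamR scores was 50.7%, against 37.7% of all bins.

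TamR lay more than 1 above the parental mean in 405 of the strongest B bins (30.6%, against 28.5% of all bins) and more than 1 below it in 176 (13.3%, against 34.3% of all bins). In the next 5% these shares were 36.1 and 18.6%, and in the other B bins 36.0 and 30.3%. The extremes were 11.3 above and 2.54 below in the strongest B bins, and bins chosen for low scores have more room above than below. The median size of the difference was 0.842, smaller than in the next 5% (1.13) and in the other B bins (1.64). The median SD over the parental libraries was 0.400, 0.378 and 0.398 in these groups. Without T24 it was 0.264, 0.288 and 0.324, which rises in the same order as the difference. Adjacent strongest B bins had similar differences (Pearson r = 0.938 and Spearman rho = 0.865 over 840 adjacent pairs, which share contacts and domains), so that bins are not independent observations. Across the 1324 bins the difference had correlations of 0.084 with GC content, 0.021 with HindIII sites, 0.041 with distance from A and -0.129 with distance from the largest assembly gap of the chromosome (Pearson r, descriptions over bins of the same 6 libraries).

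The 5 runs of at least 3 bins with the largest upward difference came close to the border of A without crossing it as a whole. The run on chromosome 21 from 27700001 to 28100000, with the start of CYYR1, a membrane protein gene, had means of -8.59, -8.33, -8.80, -8.45 and -7.45 in T0, T1, T4, T16 and T24 and -0.648 in TamR. A run on chromosome 12 from 29700001 to 30500000, with the start of TMTC1, a protein mannosyltransferase of the endoplasmic reticulum, had means of -8.80, -8.61, -8.77, -8.64 and -7.96 in the same order and -1.25 in TamR. In both runs every parental library was at least as low as -7.45, and TamR lay near the middle of its own ranks. The other 3 were on chromosome 5 from 40000001 (-8.05 parental, -0.815 TamR), on chromosome 13 from 94000001 inside GPC6 (-7.96 and -0.903) and on chromosome 18 from 1000001 (-8.00 and -0.999). No run of at least 3 strongest B bins was wholly in A in TamR. Of the 167 runs, 95 had a higher mean in TamR than in the parental libraries and 72 a lower one. In 44 runs all bins were above all 5 parental scores. Runs with all bins below were not counted, and no count for runs of other B bins is given, so the 44 has no background. Bin by bin, 38.5% of the strongest B bins were above all 5 and 29.9% below, against 35.2 and 43.7% of all bins. In the next 5% these shares were 43.1 and 33.0%.

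The 5 runs with the largest downward difference reached the lowest ranks of TamR, and every bin of them lay in its bottom 5%. They lay on chromosome 14 from 86600001 to 87500000 (-7.97 parental, -9.70 TamR) and from 87600001 to 88200000 (-8.32 and -10.0), on chromosome 20 from 6900001 to 7800000 (-8.60 and -10.2) and from 53600001 to 54000000 (-7.94 and -9.49), and on chromosome 18 from 57800001 to 58100000 (-7.85 and -9.51). The last contains MC4R, a melanocortin receptor of appetite control, and was the only one of the 5 with a protein-coding start. Its 3 bins had means of -8.48, -7.79, -7.77, -7.86 and -7.36 in T0, T1, T4, T16 and T24.

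Neighbouring stretches of 1 domain could differ in opposite directions. On chromosome 21 the 20-bin run that ends at 26900000 was 1.16 lower in TamR than its parental mean of -8.84, and the CYYR1 run that starts at 27700001 was 7.68 higher than its parental mean of -8.33. Both lie in the same B domain, from 18000001 to 30300000, which contains 42 strongest B bins.

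**Figure D5:**
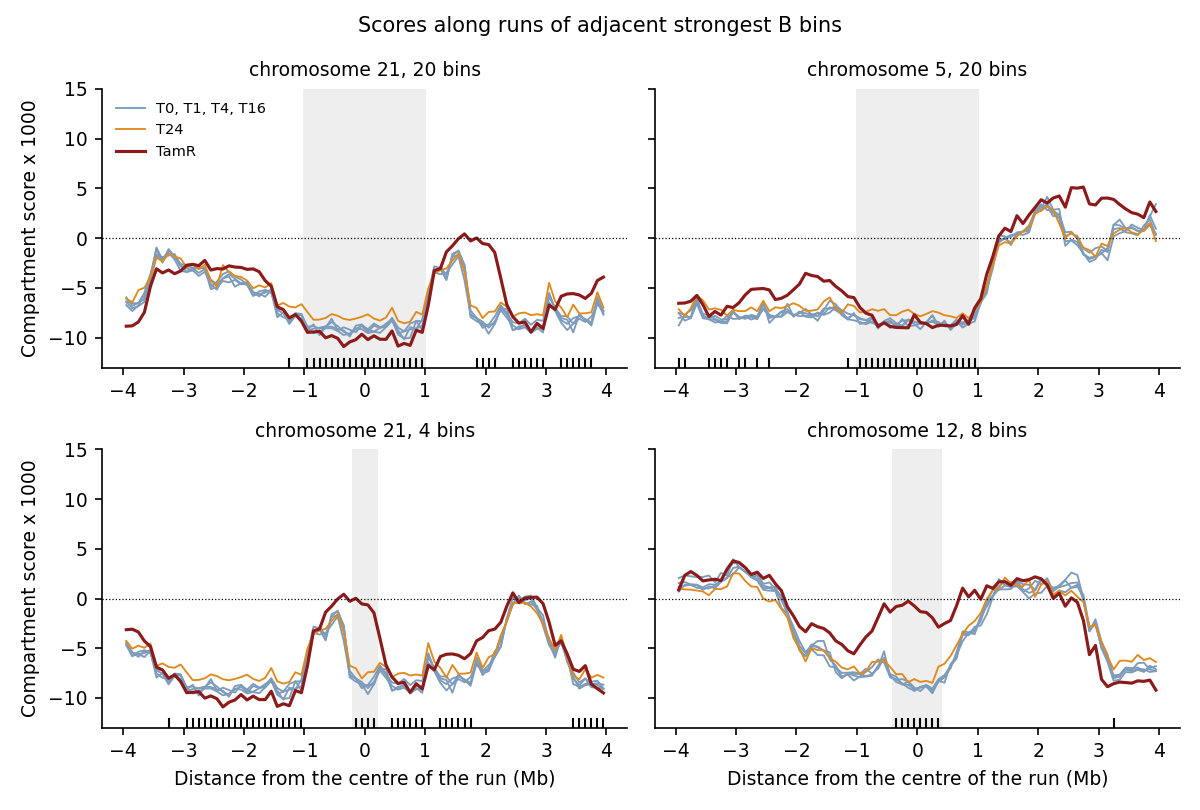
Scores multiplied by 1000 (y axis) by distance from the centre of a run in Mb (x axis) for 2 of the longest runs (top) and the 2 runs with the largest upward difference in TamR (bottom), 1 line per library; grey bands mark the run, ticks at the bottom all strongest B bins, and the dotted line the border between A and B. On chromosome 21 TamR lies below the parental lines in the 20-bin run (mean -9.99) and near 0 in the 4-bin run (mean -0.648).

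Of the strongest B bins, 17 (1.28%, 95% interval 0.803 to 2.05%) were in A in TamR. Over all 13237 bins that were B in the 5 parental libraries it was 12% (1589 bins), and in the next 5% it was 3.63%. By the choice of bins, those with the lowest scores have the longest way to the border. The 17 bins lay on chromosomes 5, 9, 11, 12, 18, 20 and 21, and 6 of them lay on chromosome 11 between 90400001 and 92300000. In that stretch all 19 scored bins were in A in TamR, with a mean of 1.81, and the means in T0, T1, T4, T16 and T24 were -7.61, -7.66, -7.58, -7.44 and -6.97. The stretch overlaps FAT3, an atypical cadherin. On chromosome 18 between 40400001 and 42100000, which overlaps RIT2 and SYT4, genes of neuronal signalling and vesicle release, 4 of 5 strongest B bins and 7 of 17 scored bins were in A in TamR. The highest single bin, on chromosome 9 from 81600001 to 81700000, scored 3.48 in TamR and -7.49, -8.25, -8.29, -7.89 and -7.17 in T0, T1, T4, T16 and T24.

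Of the 3 strongest B bins that varied least over the parental course, 1 was far from its parental scores in TamR. This bin, on chromosome 3 from 76000001 to 76100000 and inside ROBO2, had an SD over the parental libraries of 0.0698, with scores of -8.07, -7.89, -7.97, -7.99 and -7.93 in T0, T1, T4, T16 and T24, and -3.32 in TamR. The 2 others with the smallest SD, on chromosome 14 from 83300001 (0.0668) and on chromosome 13 from 102900001 inside FGF14 (0.0706), were at -8.19 and -9.24 in TamR, with parental means of -7.89 and -8.41. The 3 with the largest SD (1.36, 1.25 and 1.25), on chromosome 15 from 24700001, chromosome 21 from 10400001 and chromosome 11 from 49400001, each had T24 as their highest parental score, at -5.51, -6.38 and -5.58.

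The bottom 5% of TamR was placed differently among the chromosomes. It held 785 bins that were not among the strongest B bins of the parental cells, of which 285 came from the next 5%, 324 from the 10th to 25th percentile of the parental mean and 176 from higher ranks, 15 of them in A by parental mean. Chromosome 13 had 44 bins in the bottom 5% of TamR against 111 in the parental ordering, chromosome 16 had 9 against 41 and chromosome 17 had 3 against 30. Chromosome 8 had 161 against 111, chromosome 5 had 134 against 85 and chromosome 2 had 38 against 3. These counts set 1 library against a mean of 5 libraries, and no such counts of a single parental library are given beside them. Of the strongest B bins of chromosome 13, 26.1% stayed in the bottom 5% of TamR and of chromosome 16 4.88%, while 64.8% of those of chromosome 21 and 55.0% of those of chromosome 8 did. The median of TamR minus the parental mean was 0.844 on chromosome 13 and 0.851 on chromosome 16, and -0.148 on chromosome 21 and -0.376 on chromosome 8. The other B bins of these chromosomes had medians of 0.431, 0.915, 0.0640 and -0.310 in the same order.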

How the data were processed

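TCC was measured in 6 libraries of T47D cells, 1 per condition, and grouped by GEO's labels. According to the methods, the authors aligned reads iteratively to hg19 with bowtie2, filtered and iteratively corrected the contact matrix at 100 Kb, removed contacts within chromosomes and computed the first eigenvector with HiCLib. The authors deposited this score for each bin, with 0 where a bin has no value. Depth is unknown from these files, since they give no contact counts.

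Bins with a score of 0 in any library and chromosome X were left out, and the sign was used as deposited. Percentiles are ranks among the scored autosomal bins of a library. Shares carry 95% Wilson intervals and medians 95% exact binomial order-statistic intervals over bins, which cover the sampling of bins and not the spread between cultures. No test was made, since each condition has 1 library. GC content, CpG and HindIII sites were taken from the GRCh37 sequence, whose chromosome ends match the bins of the files, and genes from GENCODE mapped to GRCh37. A gene was counted in the bin of its start.

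The members and the 18 gene lists were chosen with earlier results of these data known. Regions were named by rule: the 5 longest runs, the 5 lowest bins, the 5 runs of at least 3 bins with the highest and the 5 with the lowest difference in TamR, the 5 bins with most protein-coding starts, the 3 bins with the largest and the 3 with the smallest SD, the 3 bins on each side of the limit, and up to 4 genes per list. The stretches in A in TamR and the long genes were picked after their values were seen. Alternatives were other orderings and shares of bins, each parental library left out of the ordering, other scalings and references, chromosome X included and gene bodies in place of starts. Python 3.11.15, numpy 2.4.6, pandas 2.3.3, scipy 1.17.1 and matplotlib 3.10.9 were used, and the choice of bins and runs was tested on simulated tracks.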

Additional observations from a re-analysis of the deposited data

How the results depend on the processing

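No paired analysis was possible because the labels give no replicate of any condition. Of 93 values from 16 alternatives, 79 stayed within the interval of the value reported and 14 moved out of it. The cause was not tested for those that moved. Only the median of TamR minus the parental mean could change sign, and it did not in any alternative that gave it. With the bottom 2% of bins (529 bins), 49.1% were in the bottom 5% of TamR, 24.8% were below all 5 parental scores, 0.378% were in A in TamR and the median parental SD was 0.412. With the lowest 5% taken within each autosome, 33.9% were in the bottom 5% of TamR. The largest share of 1 chromosome was then 8.92% (chromosome 2). This value, counted among the 14, is fixed by the setting, since chromosome 2 has the most scored bins. Within-library ranks gave 61.4% above and 12.5% below the parental libraries. With T0 as the reference the median difference was 0.345. Without a protein-coding gene body were 65.7%. Added after seeing the data, T24 left out of the range gave 50.7% above all parental scores, out of the reference a median difference of 0.319 and out of the SD 0.264.

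With each parental library left out of the ordering in turn, 40.0 to 40.5% were in the bottom 5% of TamR. Between 1.13 and 1.51% were in A in TamR. The range, the reference and the SD still used all 5 parental libraries. The shares above and below all 5 parental scores were 37.7 to 39.0% and 28.9 to 29.8%, and the median difference was 0.162 to 0.175. The median parental SD was 0.396 to 0.415, bins without a protein-coding start 91.6 to 92.2%, GC content 36.7% in each case, and the share of chromosome 3 10.3 to 11.3%. With the library left out of the reference as well, the median difference ran from 0.122 (T4 left out) to 0.319 (T24 left out). Ordering by mean rank kept 1302 of the 1324 bins and ordering within each autosome 961. Depth and replicate error could not be set against any of these values.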

Other observations

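Chromosome X was left out of the choice of bins. With X included, the lowest 5% comprised 1394 bins, of which 80 lay on X, or 5.66% of its scored bins. This share lay between those of chromosomes 9 (5.48%) and 12 (5.67%).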
